A study of Peromyscus polionotus with 11 samples.

Results

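The proteasome genes were read as the probe sets whose single gene symbol in the platform annotation is Psma, Psmb, Psmc, Psmd, Psme, Psmf or Psmg followed by a number. The rule found 83 of the 22626 probe sets tested, for 46 of the 12393 genes with a probe set of their own. By the letter of the symbol, 30 probe sets of 18 genes belong to the core (a and b), 11 of 6 genes to the ATPases (c), 26 of 14 genes to the non-ATPases (d) and 16 of 8 genes to the activator class (e to g). Values were compared over both nuclei and both day lengths.

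The proteasome is the protease that degrades proteins tagged with ubiquitin. Its core is a barrel of alpha and beta rings, in which a few beta subunits cut the substrate, and its cap holds a ring of ATPases that unfolds the substrate and a lid that removes the ubiquitin. In neurons the proteasome turns over synaptic proteins, and in cells exposed to interferon, immunoproteasome subunits replace the standard catalytic subunits.

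Total RNA from brain micropunches of Peromyscus polionotus, the oldfield mouse, was hybridised to arrays of probe sets designed for the house mouse. The medial preoptic area gave 3 long-day and 3 short-day samples, and the bed nucleus of the stria terminalis gave 3 long-day and 2 short-day samples, 1 array each. The labels give no strain, sex or age, no drug treatment and no hours of light, and they do not tie sample numbers to animals, so p-values measure the spread between these samples, which may in part be technical. Long-day arrays are numbered 1 to 3 and short-day arrays 4 to 6 in the preoptic area, and 1 to 3 and 4 to 5 in the bed nucleus.

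Values are deposited intensities on a linear scale, rounded to whole numbers, and each difference is a log2 value ± the standard error from the fit. Every array had a median of 19, with quartiles of 13 to 14 and 33 to 35. A step of 1 unit at 19 is 0.07 on the log2 scale, so dim probe sets are coarsely measured. Preoptic short-day array 6 stood apart, at -31.2 on the first principal component against -6.63 to 25.4 on the other arrays. No pair of arrays was identical.

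The nuclei were compared on lists of marker genes. These lists were chosen with earlier results of these data known, so this is a description and not an independent check. Which tissue in the punches gave these signals was not tested. Of 6 measured striatal neuron genes, all 6 read higher in the bed nucleus than in the preoptic area, and 4 passed the test at an adjusted p of 0.05. Of 8 preoptic and hypothalamic genes, 5 were lower in the bed nucleus and passed, and Otp was higher and passed. Gal, the galanin precursor, read 93 to 122 in the preoptic area and 54 to 80 in the bed nucleus. Of 7 neuron markers, 6 were above the array median on all 11 arrays. Esr1, an estrogen receptor, was below the array median on all arrays, at 9 to 14.

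Most proteasome genes gave a signal across species. Of the 83 probe sets, 52 lay above the array median on all 11 arrays, 15 on some and 16 on none, and 64 lay above it on at least 2 arrays. For 40 of the 46 genes at least 1 probe set was above the median on every array. The other 6 were Psma8, the alpha subunit of the testis, the catalytic subunits Psmb6 and Psmb9, the lid subunit Psmd7, the chaperone Psmd10 and the assembly factor Psmg4. A total of 47 probe sets of 36 genes were among the brightest 5657 of all probe sets, with a mean above 33.7; these are called bright here and the rest dim. Levels of different genes were not ranked, since a house-mouse probe set can lose an unknown part of its signal on Peromyscus RNA.

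Among the 25 genes read by 1 probe set and the 21 read by several, the latter often held bright and dim probe sets side by side. Psmd11, a lid subunit, had 6 probe sets, Psma6, an alpha subunit, had 4, and Psmf1, the gene of the inhibitor PI31, had 4. Of the 83 probe sets, 8 carry the suffix _x_at and 4 the suffix _s_at, which mark probes that can match more than 1 transcript. Psme2, which codes for a partner of Psme1 in the interferon-induced activator, shares its probe set with another symbol and is not a member.

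**Figure D1:**
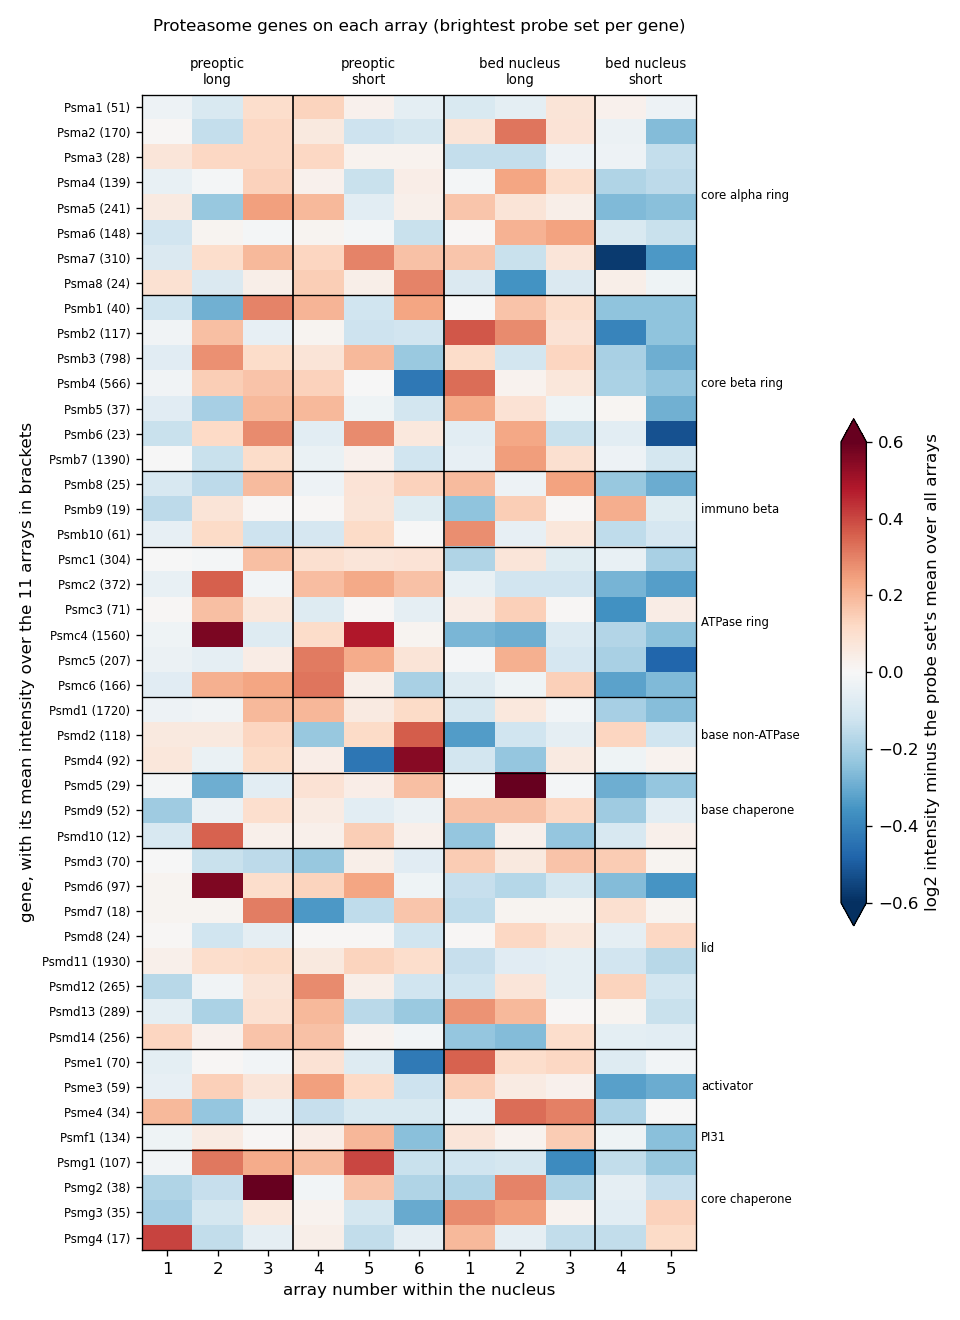
Log2 intensity of the brightest probe set of each of the 46 genes on each of the 11 arrays, as the deviation from that probe set's mean over all arrays. Rows are grouped by role, with the mean intensity in brackets, and columns are arrays grouped by nucleus and day length. Blue cells prevail in both short-day bed nucleus columns, Psma7 and Psmb2 among the deepest, while the ATPases Psmc2 and Psmc4 are red on preoptic array 2.

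In the bed nucleus, most proteasome probe sets read lower in short days than in long days, and no single probe set passed the test. With dim probe sets included, the beta ring of the core and the ATPases had the lowest medians of the larger groups. These were -0.286 and -0.213 on the log2 scale, while the alpha ring, at -0.009, and the lid, at -0.052, lay closer to no difference. Bright probe sets of the rings largely overlapped, at -0.50 to 0.02 in the alpha ring and -0.57 to -0.17 in the beta ring. Of the 15 bright core probe sets 14 were lower, with a median of -0.286. Psmb2, a beta ring subunit, and Psma7, an alpha ring subunit, had the lowest differences, at -0.57 and -0.50. Psmf1, the inhibitor PI31, had the highest, at 0.71, from a dim probe set; its other dim probe sets were also higher, at 0.34 and 0.13, and its bright one was lower.

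At an adjusted p of 0.05 in limma, 0 of 83 members were called in the bed nucleus, against 0.0442% of all probe sets. At an unadjusted p under 0.05 there were 15 members, or 18.1%, against 12.7% of all probe sets, and 12 of the 15 read lower. Of the 83 members, 53 read lower and 30 higher, with a median of -0.078, beside a median of -0.015 and 52.7% lower over all probe sets. In mixed tissue of this kind, fewer cells of a type and less RNA per cell cannot be told apart.

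The lean was larger among the bright members, and bright probe sets in general leaned the same way. Of 47 bright members, 38 (80.9%) read lower in short days, with a median of -0.217, beside 67.6% and -0.094 over all 5657 bright probe sets. With 1 probe set per gene, 34 of 46 genes read lower and the median was -0.215. Both short-day arrays lay below all 3 long-day arrays for 26 members, or 31.3%, against 13.5% of all probe sets, and above them for 5, or 6.02%, against 10.2%. Among bright members the first of these counts was 22 of 47, or 46.8%, against 26.4% of all bright probe sets.

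These figures depended on the scaling of the arrays. With each array centred on its bright probe sets, the median of all probe sets moved from -0.015 to 0.087 and that of the members to 0.023, with 38 lower and 45 higher. The bright members were still lower than all bright probe sets, at -0.115 beside 0.007, with 31 of 47 lower. With quantile normalization the bright members were at -0.1 beside -0.007, with 33 of 47 lower. Under these scalings in turn the median was -0.184 and -0.203 for the beta ring and -0.111 and -0.033 for the ATPases. With dim probe sets included, it was above 0 under both for the alpha ring and the lid, and under the first for the activator class, at 0.027. The median of all 83 members was -0.132 when bed nucleus array 1 was left out, -0.119 when array 3 was and -0.117 when array 4 was.

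The alpha ring forms the outer gates of the barrel. Psma7, 1 of its subunits, read 343, 278 and 321 in long days and 205 and 240 in short days (probe set 1423568_at). Both short-day arrays were below every other array of either nucleus. The difference was -0.50 ± 0.15 (SE, n = 3 and 2), a ratio of 0.709, and did not pass (limma, adjusted p = 0.166). The second, dim Psma7 probe set, 1423567_a_at, read 19, 17 and 17 in long days and 13 and 16 in short days, at -0.29 ± 0.14 (adjusted p = 0.397).

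Other alpha subunits with a bright probe set split by gene. Psma2, Psma4, Psma5 and Psma6 each had a bright probe set with both short-day arrays below the long-day ones, at -0.31, -0.28, -0.35 and -0.27. Psma1, by contrast, read 48, 49 and 54 in long days and 52 and 50 in short days on its bright probe set, a difference of 0.02. Over all 16 alpha probe sets, dim ones included, 8 were lower and 8 higher, with a median of -0.009.

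Psma5 and Psma6 show how probe sets of a gene diverged. Psma5 read 268, 252 and 245 in long days and 199 and 201 in short days on 1424681_a_at, but 11, 10 and 12 against 14 and 14 on 1434356_a_at. Psma6 read 148, 170 and 174 against 138 and 134 on 1416506_at, but 11, 12 and 11 against 13 and 16 on 1435316_at. In both pairs the brighter probe set was lower in short days without overlap, and the dimmer one higher without overlap. These pairs were chosen after their values were seen, and other probe sets of both genes did not divide in this way. Psma5's 1454940_at, also dim, was lower without overlap, with 12, 12 and 12 against 11 and 10. Psma6's bright 1437144_x_at, with 44, 47 and 41 against 36 and 51, and its dim 1435317_x_at, with 18, 19 and 19 against 21 and 18, overlapped. Over the family, 12 of the 21 genes with several probe sets had probe sets of opposite sign in this comparison.

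The beta ring holds the cutting sites. Psmb2, a beta subunit that does not cut, read 150, 141 and 123 in long days and 88 and 98 in short days. The short-day values were the lowest of all 11 arrays, while the long-day arrays 1 and 2 were the highest. The difference was -0.57 ± 0.14 (SE, n = 3 and 2), a ratio of 0.675, with an unadjusted p of 0.000769 and an adjusted p of 0.114 in limma.

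Of 11 beta ring probe sets, 9 were lower in short days and 2 higher, with a median of -0.286. Psmb3, a neighbour without a cutting site, read 221, 221 and 191 against 170 and 141 on 1417052_at, at -0.44 ± 0.17 (adjusted p = 0.270). Its second probe set, 1460198_a_at, read 855, 733 and 866 against 692 and 647, at -0.29. Psmb4, also without a cutting site, read 707, 568 and 588 against 492 and 475 on its bright probe set, at -0.35 ± 0.16 (adjusted p = 0.374). These 3 genes had all their short-day values on bright probe sets below all long-day values.

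The catalytic subunits of the standard proteasome are Psmb5, Psmb6 and Psmb7. Psmb5, the chymotrypsin-like site, read 43, 39 and 36 in long days and 37 and 30 in short days, at -0.24 ± 0.16. Psmb6, the caspase-like site, read 22, 27 and 21 against 22 and 16, at -0.31 ± 0.17. Psmb7, the trypsin-like site, read 1338, 1647 and 1481 against 1357 and 1288, at -0.17 ± 0.14 (adjusted p = 0.668 in limma). In all 3 the groups overlapped, and none passed. In the preoptic area Psmb5 read 35, 32 and 42 in long days and 42, 36 and 34 in short days. Psmb6 read 21, 25 and 28 against 22, 28 and 24 there, and Psmb7 1383, 1265 and 1497 against 1346, 1411 and 1276. These overlapped as well.

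The immunoproteasome subunits that take their places gave no common direction. Psmb8 read 28, 24 and 29 in long days and 21 and 20 in short days, at -0.39 ± 0.15 (adjusted p = 0.268 in limma), without overlap. Psmb10 read 74, 59 and 64 against 55 and 57, at -0.22 ± 0.14 (adjusted p = 0.547), also without overlap. Psmb9 lay between 16 and 22 on all arrays and its groups overlapped, with 16, 21 and 19 against 22 and 18, at 0.10 ± 0.15 (adjusted p = 0.831). In the preoptic area all 3 overlapped between day lengths. Psmb8 read 23, 22 and 28 in long days and 24, 26 and 27 in short days there. Psmb9 read 17, 20 and 19 against 19, 20 and 18. Psmb10, whose probe set is bright, read 59, 66 and 56 against 57, 66 and 61.

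**Figure D2:**
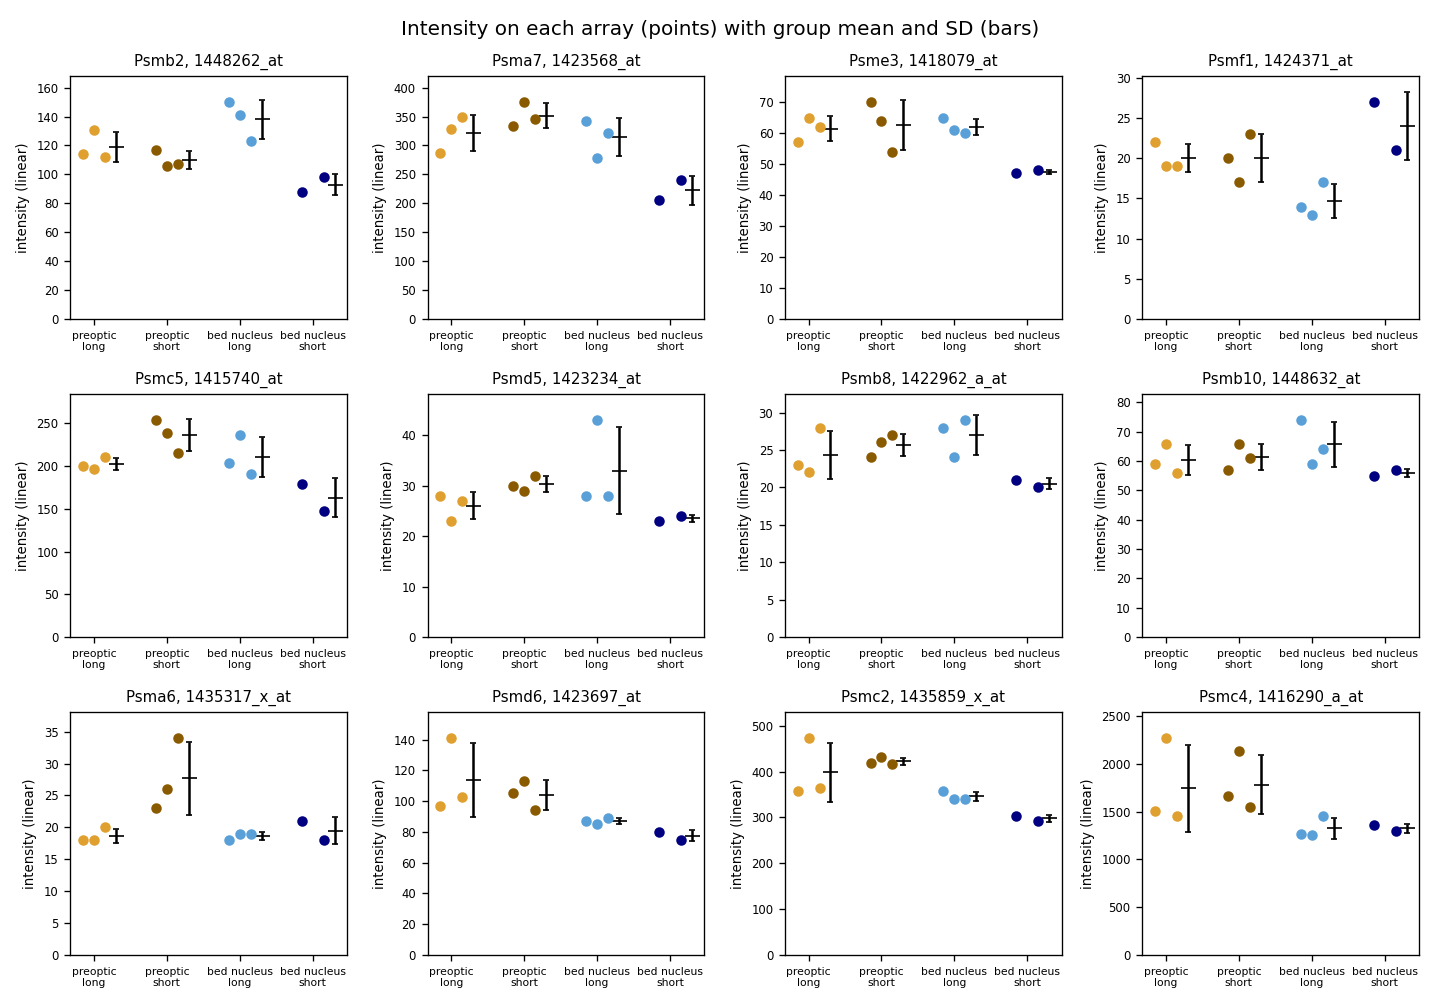
Intensity on a linear axis from 0 for 12 probe sets, with 1 point per array in 4 groups (preoptic long, n = 3, preoptic short, n = 3, bed nucleus long, n = 3, bed nucleus short, n = 2) and the group mean with its SD. Psmb2, Psma7, Psme3, Psmc5 and Psmb8 have both short-day bed nucleus points lowest of that nucleus, and the dim Psmf1 probe set has them highest. For Psmd6, Psmc2 and Psmc4 all bed nucleus points lie below all preoptic points, though only just for Psmc2 and Psmc4.

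The ATPase ring unfolds the substrate and feeds it into the barrel. Of its 11 probe sets, 7 were lower in short days in the bed nucleus and 4 higher, with a median of -0.213, and 6 of the 7 bright ones were lower, with a median of -0.223. Psmc5 read 204, 237 and 191 in long days and 179 and 147 in short days, at -0.37 ± 0.15 (adjusted p = 0.294 in limma), without overlap. Psmc6 was at -0.31 on its bright probe set and Psmc2 at -0.21 on 1435859_x_at, both without overlap.

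Psmc4 depended on the probe set. On 1416291_at it read 818, 643 and 780 in long days and 570 and 575 in short days, at -0.38 ± 0.17 (adjusted p = 0.350). On 1416290_a_at it read 1270, 1254 and 1451 against 1358 and 1292, a difference of 0.00 ± 0.18 (adjusted p = 0.998). The first probe set separated the groups and the second did not.

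The non-ATPase subunits lay closer to no difference than the core, with 16 of 26 probe sets lower and a median of -0.054. Of the base subunits, which bind ubiquitin or hold the ring together, Psmd1 read 1595, 1791 and 1696 in long days and 1490 and 1434 in short days, at -0.21 ± 0.14 (adjusted p = 0.549). Psmd2, its partner, read 93, 108 and 113 against 128 and 108, at 0.17 ± 0.16 (adjusted p = 0.709). The 3 probe sets of the ubiquitin receptor Psmd4 were at 0.10, -0.22 and 0.10. So the base showed no shared direction, with 3 of 5 probe sets higher.

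Among the chaperones that assemble the base, Psmd5 read 28, 43 and 28 in long days and 23 and 24 in short days, at -0.46 ± 0.17 (adjusted p = 0.266 in limma). Its groups did not overlap, and the long-day array 2 alone stood at 43. Psmd9 was at -0.30 on 1423386_at, without overlap, and at -0.09 on its dim probe set. Psmd10, below the array median on all arrays, was at 0.11.

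The lid's 17 probe sets had a median of -0.052, with 11 lower. Psmd14, the subunit that removes ubiquitin, read 217, 213 and 274 in long days and 245 and 244 in short days, at 0.07. Psmd11 was at -0.05 on its brightest probe set and between -0.26 and 0.06 on all 6. Psmd3, Psmd8, Psmd12 and Psmd13 had differences between -0.22 and 0.05. The 3 dim probe sets of Psmd7, which pairs with Psmd14, were at 0.10, 0.06 and -0.35. Short-day values lay below all long-day values for 2 lid probe sets, 1 of Psmd11 and 1 of Psmd6, or 11.8%, near the 13.5% of all probe sets.

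The activator class holds factors of different roles. Psme3, which codes for the nuclear activator, read 65, 61 and 60 in long days and 47 and 48 in short days on 1418079_at, at -0.38 ± 0.14 (adjusted p = 0.264 in limma). Its preoptic values, 57, 65 and 62 in long days and 70, 64 and 54 in short days, overlapped. Its second bright probe set, 1438509_at, read 40, 43 and 38 against 42 and 60, at 0.32 ± 0.16 (adjusted p = 0.426), so the gene had no direction common to its probe sets. Psme1, a subunit of the interferon-induced activator, read 89, 75 and 76 against 66 and 69, at -0.24 ± 0.15, without overlap. Psme4, a large activator of the nucleus, was at -0.29 on its bright probe set. Psme1, Psme3 and Psme4 have 7 probe sets, of which 3 are of Psme3. As deposited 6 of the 7 were lower and only 1438509_at was higher, while with centring on bright probe sets 3 were lower and 4 higher.

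Psmf1 codes for PI31, which inhibits the core in vitro. On 1424371_at it read 14, 13 and 17 in long days and 27 and 21 in short days. Both short-day arrays were above all long-day arrays, and the preoptic arrays, with 22, 19 and 19 in long days and 20, 17 and 23 in short days, lay across that gap. The difference was 0.71 ± 0.17, a ratio of 1.63, with an unadjusted p of 0.000386 and an adjusted p of 0.106 in limma. The bright probe set of the same gene, 1451337_at, read 140, 135 and 148 against 131 and 112, at -0.22 ± 0.15 (adjusted p = 0.572), and 131, 138 and 134 against 137, 153 and 112 in the preoptic area. The remaining Psmf1 probe sets, both dim, were higher, at 0.34 on 1424370_s_at and 0.13 on 1424369_at, with overlap.

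The assembly chaperones of the core, Psmg1 to Psmg4, lay near no difference, with 5 probe sets between -0.15 and 0.01. Psmg1, the brightest of them, read 97, 98 and 81 in long days and 95 and 90 in short days. Its groups overlapped in the bed nucleus.

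**Figure D3:**
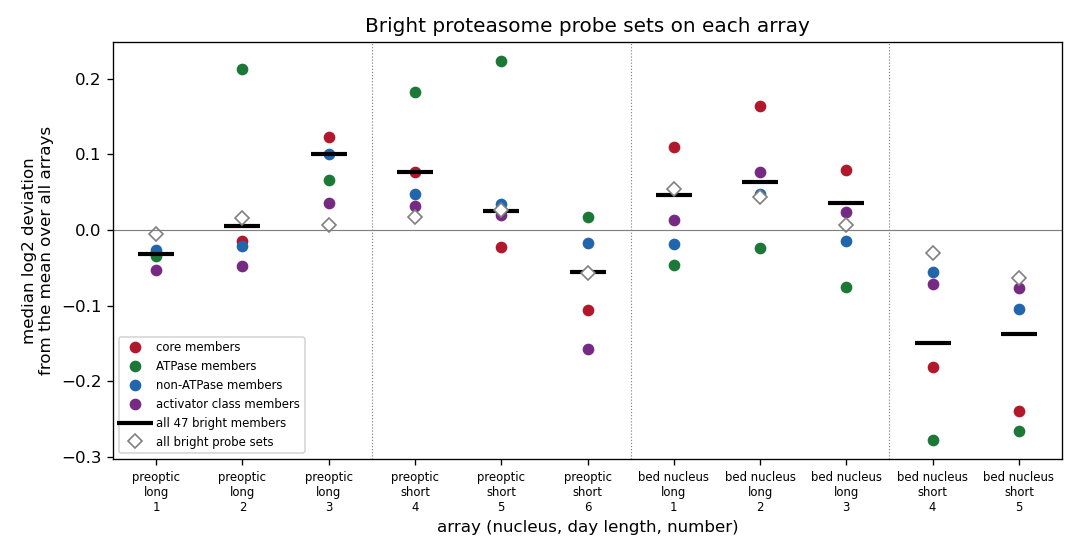
Median log2 deviation of the 47 bright members from their own means over the 11 arrays, for each class (points), for all of them (bars) and for all 5657 bright probe sets (diamonds), by array. Bed nucleus short-day arrays 4 and 5 hold the lowest member medians, -0.149 and -0.138, beside -0.030 and -0.064 for all bright probe sets.

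Array by array, the bright members lay lowest on both short-day bed nucleus arrays. Their median deviation was -0.149 on array 4 and -0.138 on array 5, against 0.036 to 0.064 on the long-day arrays and -0.056 to 0.1 in the preoptic area. For 25 of the 47 bright members (53.2%) the lowest value of all 11 arrays, ties included, was on 1 of these arrays, against 32.2% of all bright probe sets. The ATPases were lowest, at -0.278 and -0.266, and the core was at -0.181 and -0.24. The non-ATPases were at -0.056 and -0.105 and the activator class at -0.071 and -0.077. On the long-day bed nucleus arrays the ATPases were already below their mean, at -0.075 to -0.024, while the core was at 0.079 to 0.164. Short minus long days, the bright core probe sets had the lower median, -0.286 against -0.223 for the bright ATPases.

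Other genes of the ubiquitin-proteasome system were taken from a list of 49 symbols, some of them older and newer names of the same gene. Of these symbols, 33 had a probe set of their own, each for a different gene. In the bed nucleus 29 of the 33 were lower in short days and 4 higher, with a median of -0.148, and limma called 0 of them. The 3 at an unadjusted p under 0.05 were 9.09%, against 12.7% of all probe sets. Of the 33, 27 were bright, and bright probe sets in general were 67.6% lower, with a median of -0.094. With quantile normalization 20 of the 33 were lower, with a median of -0.033, and with centring on bright probe sets 22, with a median of -0.047. As deposited, all 14 measured genes of ubiquitin activation and conjugation were lower, with a median of -0.161, as were 7 of 8 genes of delivery, 4 of 6 proteasome-associated genes and all 3 deubiquitinases. Of the 2 transcription factors, 1 was lower and 1 higher. These counts also depended on the scaling. With quantile normalization, 9 of the 14 conjugation genes (median -0.052) and 4 of the 8 delivery genes (0.002) were lower. With centring on bright probe sets, these were 13 of 14 (-0.059) and 3 of 8 (0.038). Under each of these scalings 2 of the 3 deubiquitinases and 4 of the 6 proteasome-associated genes were lower. Among the deubiquitinases, Uchl1 read 9 to 15, below the array median, and Usp7 was at -0.03 ± 0.13 as deposited.

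Usp9x, which removes ubiquitin from substrates, read 265, 266 and 211 in long days and 182 and 183 in short days, at -0.43 ± 0.14 (adjusted p = 0.221 in limma). Cul1, the scaffold of a ubiquitin ligase, read 40, 43 and 34 against 26 and 33, at -0.41 ± 0.15 (adjusted p = 0.255). Both were separated without overlap. In the preoptic area, 11 of the 33 genes were lower in short days, with a median of 0.031.

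Genes induced together with the immunoproteasome were mixed in direction. Of 12 measured, which include the members Psmb8, Psmb9, Psmb10 and Psme1, 7 were higher and 5 lower in short days in the bed nucleus, with a median of 0.063 and 0 calls in limma (3 at an unadjusted p under 0.05). H2-D1, a class I antigen-presenting molecule, read 287, 407 and 489 in long days and 707 and 894 in short days, at 1.05 ± 0.24 (adjusted p = 0.106). Its probe set is of the _x_at kind.

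Markers of cell types differed in the bed nucleus as well, and their part in the proteasome values was not tested. Of 7 neuron markers, 5 were lower in short days, with a median of -0.260 and summed intensities of 1908 to 2271 in long days and 1889 to 2021 in short days. Of 6 ependyma and choroid plexus markers, 5 were lower, with a median of -0.328 and sums of 164 to 195 against 144 to 145. Of 6 astrocyte markers, 5 were lower, with a median of -0.106 and sums of 4613 to 5126 against 4273 to 4755.

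The remaining cell type lists were more mixed. Vessel markers were lower in 5 of 8 (sums 254 to 288 against 205 to 254), oligodendrocyte markers in 3 of 5 (210 to 346 against 151 to 385), microglia markers in 4 of 7 (147 to 156 against 150 to 165) and red cell markers in 2 of 3 (52 to 53 against 47 to 53). Striatal markers were lower in 3 of 6 (2974 to 3578 against 3585 to 3769) and preoptic and hypothalamic markers in 5 of 8 (2756 to 3031 against 2456 to 2854). No marker read 0, since the lowest value of the whole table is 5. None of these markers passed the test for day length in limma.

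In the medial preoptic area, proteasome probe sets were as often higher as lower in short days. Of the 83, 43 were higher and 39 lower, with a median of 0.003, beside 0 over all probe sets, and the classes had medians from -0.034 in the activator class to 0.026 in the core. In limma 0 members were called at an adjusted p of 0.05, as were 0% of all probe sets. At an unadjusted p under 0.05 there were 2 members, or 2.41%, against 3.5% of all probe sets. Without array 6, which stood apart, the median was 0.025, with 48 higher and 34 lower.

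No member had all short-day preoptic arrays below all long-day ones, against 2.55% of all probe sets, and 5 members (6.02%) had them above, against 2.64%. These were single probe sets of the alpha subunits Psma1, Psma6 and Psma7, the ATPase Psmc5 and the chaperone Psmd5. Psma1, on a probe set below the array median, read 9, 10 and 10 in long days and 11, 11 and 12 in short days, steps of a few units at most, and in the bed nucleus 11, 9 and 11 against 10 and 12. Psmc5 read 200, 197 and 211 against 254, 239 and 216, at 0.22 ± 0.13 (adjusted p = 1 in limma). Psmd5 read 28, 23 and 27 against 30, 29 and 32, at 0.23 ± 0.15 (adjusted p = 1).

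Psma6 held both members with an unadjusted p under 0.05 in the preoptic area, in opposite directions. Its probe set 1435317_x_at read 18, 18 and 20 in long days and 23, 26 and 34 in short days, at 0.55 ± 0.14 (unadjusted p = 0.000941, adjusted p = 1 in limma). Its probe set 1437144_x_at read 47, 54 and 41 against 38, 41 and 28, at -0.42 ± 0.16 (unadjusted p = 0.0179, adjusted p = 1). Array 6 held the extreme value of both, and without it the differences were 0.39 ± 0.14 and -0.25.

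The other Psma6 probe sets did not settle a direction. The brightest, 1416506_at, read 136, 149 and 146 in long days and 149, 146 and 134 in short days, at -0.01. The dim 1435316_at read 12, 15 and 15 against 19, 15 and 17, at 0.28 ± 0.14. Probe sets of the _x_at kind can match other transcripts, and which transcripts these read in Peromyscus was not tested.

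**Figure D4:**
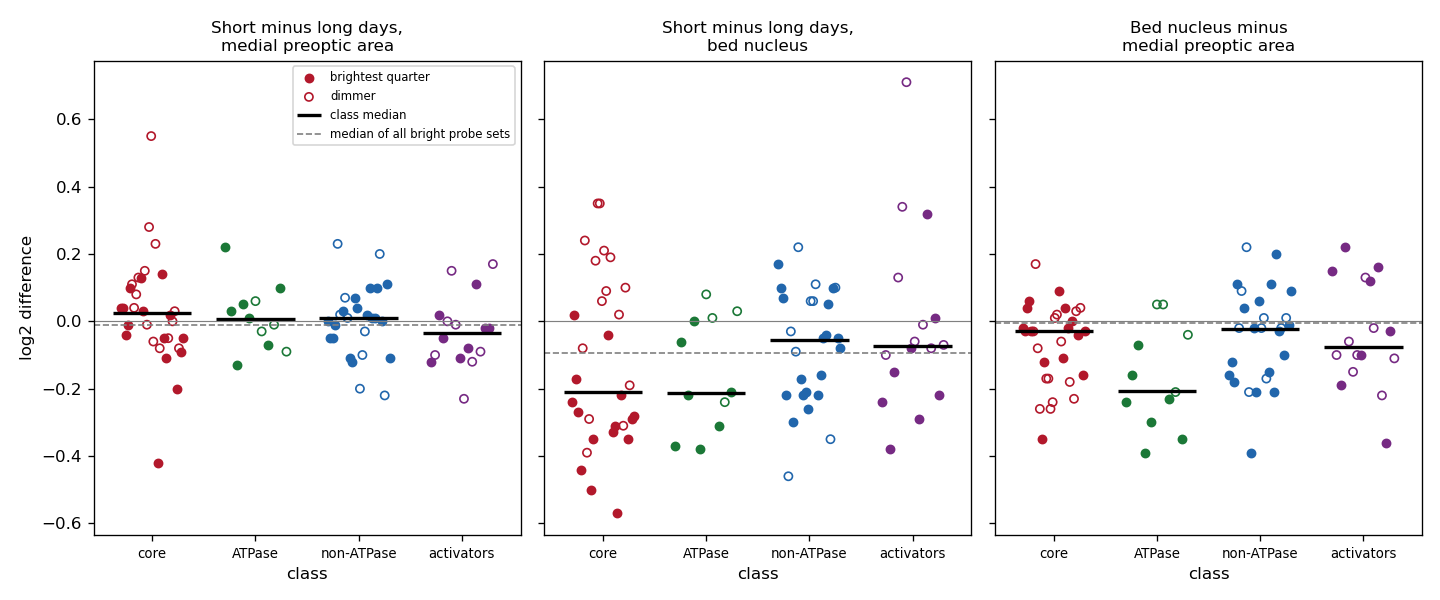
Log2 difference of each of the 83 probe sets by class for short minus long days in the medial preoptic area (left), the same in the bed nucleus (middle) and bed nucleus minus medial preoptic area (right). Filled points are bright, open points dimmer, bars are class medians and the dashed line is the median of all bright probe sets. Core medians are 0.026, -0.209 and -0.029 from left to right, and ATPase medians 0.006, -0.213 and -0.207.

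Averaged over both nuclei, short minus long days gave 57 members lower and 26 higher, with a median of -0.072 beside -0.007 over all probe sets. This too depended on the scaling, with 49 lower and a median of -0.028 under quantile normalization, and 46 lower and -0.017 with centring on bright probe sets. Limma called 0 members at an adjusted p of 0.05, against 0.0133% of all probe sets, and 5 members (6.02%) had an unadjusted p under 0.05, against 9.02%. This mean uses the same arrays as both comparisons within a nucleus. Psmb2 had the lowest mean difference, -0.34 ± 0.10 (adjusted p = 0.369), with 114, 131 and 112 in long days and 117, 106 and 107 in short days in the preoptic area.

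The day length effect was compared between the nuclei by the interaction, bed nucleus minus preoptic area, which shares its arrays with the comparisons above. Limma called 0 members, and 0% of all probe sets. At an unadjusted p under 0.05 there were 12 members, or 14.5%, against 8.34%, 11 of them with the lower effect in the bed nucleus. The median over the members was -0.098 beside -0.018 over all probe sets, and over bright members -0.194 beside -0.083. With quantile normalization the members were at -0.032 and the bright members at -0.071. With centring on bright probe sets the members were at -0.004, with 43 lower and 40 higher, and the bright members at -0.101. A difference between the nuclei in the response of any proteasome gene was therefore not shown.

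The 4 members with the smallest p in that comparison had roles in different parts of the complex. Psma7 (1423568_at) read 287, 328 and 349 in long days and 334, 375 and 345 in short days in the preoptic area, and its interaction was -0.63 ± 0.20 (adjusted p = 0.461 in limma). The dim Psmf1 probe set had an interaction of 0.72 ± 0.22 (adjusted p = 0.450). The interaction was -0.59 ± 0.20 for Psmc5 (adjusted p = 0.478) and -0.69 ± 0.23 for Psmd5 (adjusted p = 0.481).

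Between the nuclei, the ATPases and a few subunits of other classes read lower in the bed nucleus than in the preoptic area, by up to 0.39 on the log2 scale, and none passed the test. This comparison averages both day lengths. The median deviation of the bright ATPases was -0.034 to 0.223 on preoptic arrays. It was -0.075 to -0.024 on long-day bed nucleus arrays and -0.278 and -0.266 on short-day ones. Of 83 members 57 were lower and 26 higher, with a median of -0.037, beside 0 and 49.8% lower over all probe sets. In limma 0 members were called, against 1.03% of all probe sets. At an unadjusted p under 0.05 there were 16 members, or 19.3%, against 11.9%, and 14 of them were lower in the bed nucleus. The member median was -0.056 and -0.068 when preoptic arrays 1 and 2 were left out in turn, and -0.085 when bed nucleus array 4 was.

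All 5 bed nucleus arrays lay below all 6 preoptic arrays for 5 members (6.02%), against 0.769% of all probe sets. No member lay above in this way, against 0.703%. The 5 were the alpha subunit Psma3, the ATPases Psmc2 and Psmc4, and the lid subunits Psmd6 and Psmd11, each on 1 probe set. Several were separated by the smallest step of whole numbers, with 28 against 27 for Psma3, 358 against 357 for Psmc2 and 1452 against 1451 for Psmc4. The gaps of Psmd6, 94 against 89, and Psmd11, 1964 against 1849, were wider. With log2(intensity + 16), which damps dim values, 3 members passed, as did 275 of the 22626 probe sets, with Psma7 at -0.33 (adjusted p = 0.0403 in limma), Psmc2 at -0.33 (adjusted p = 0.0325) and Psmd11 at -0.20 (adjusted p = 0.0376).

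The ATPase ring had the lowest class median, -0.207, with 9 of 11 probe sets lower, and all 7 bright ones were lower, with a median of -0.245. Psmc2 read 358, 473, 364, 419, 431 and 417 in the preoptic area and 357, 340, 341, 304 and 293 in the bed nucleus. The groups were just separated, by 358 against 357, and the difference was -0.35 ± 0.10 (adjusted p = 0.103 in limma). Psmc4 read 1509, 2268, 1452, 1658, 2137 and 1552 against 1270, 1254, 1451, 1358 and 1292 on 1416290_a_at, at -0.39 ± 0.12 (adjusted p = 0.154). Preoptic arrays 2 and 5 stood above the other preoptic arrays in both genes, with a gap that was wide in Psmc4.

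Psmc5 was at -0.24 ± 0.10 (adjusted p = 0.306), Psmc6 at -0.23 on its bright probe set and Psmc1 at -0.16. In long days alone Psmc5 was not lower, with means of 203 in the preoptic area and 211 in the bed nucleus. Psmc2 was, at 398 against 346, as was Psmc4 on 1416290_a_at, at 1740 against 1320. Psmc3 was closest to no difference among the bright ATPase probe sets, at -0.07. The second probe set of Psmc4 was at -0.30 ± 0.11 (adjusted p = 0.258).

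In the lid, Psmd6 had the smallest p of all members in this comparison. It read 97, 141, 103, 105, 113 and 94 in the preoptic area and 87, 85, 89, 80 and 75 in the bed nucleus on 1423697_at. The ranges did not overlap, and preoptic array 2 was highest. The difference was -0.39 ± 0.11, a ratio of 0.761 (unadjusted p = 0.00142, adjusted p = 0.0877 in limma), so it passed only at a threshold of 0.10, which 402 of all probe sets met. Psmd11 read 1964, 2072, 2088, 2007, 2110 and 2069 against 1747, 1837, 1849, 1775 and 1717 on 1440253_at, at -0.21 ± 0.09 (adjusted p = 0.336), and its other 5 probe sets were between -0.15 and 0.09.

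Psmg1, the assembly chaperone, read 104, 131, 123, 120, 139 and 96 in the preoptic area and 97, 98, 81, 95 and 90 in the bed nucleus, at -0.36 ± 0.11 (adjusted p = 0.149 in limma). The groups overlapped only through preoptic array 6, at 96. In the core the median was -0.029 over 30 probe sets, and Psma7 was lowest, at -0.35 ± 0.10 (adjusted p = 0.109), with its long-day bed nucleus arrays, 278 to 343, mostly within the preoptic range of 287 to 375. The 11 beta ring probe sets had a median of -0.027, with Psmb2 at -0.02 and Psmb7 at 0.04.

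Of the other genes of the ubiquitin-proteasome list, 24 of 33 were lower in the bed nucleus and 9 higher, with a median of -0.066 and 0 calls in limma. The 5 at an unadjusted p under 0.05 were 15.2%, against 11.9% of all probe sets. In the same comparison 4 of 7 neuron markers were lower, with a median of -0.056, and all 5 measured oligodendrocyte markers were higher, with a median of 0.389. Their part in the proteasome values was not tested.

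Within groups, the proteasome genes varied together only weakly. After the group means were removed, the median pairwise correlation over the 11 arrays was 0.16 among the 36 genes with a bright probe set (630 pairs, 61.7% positive), beside 0.04 (53.4% positive) among all bright probe sets. All pairs share the same arrays and their scaling, so this is a description.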

How the data were processed

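Micropunch RNA of 11 samples was measured on 1 array each. The authors deposited linear intensities per probe set, made with RMA version 3.4 per the submitters' processing notes, and further steps were not stated there. They are whole numbers with equal array medians. No detection call was used, and the number of arrays limits the precision.

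After 64 control probe sets of 22690 were set aside, log2 intensities (no pseudocount) of 22626 were fitted as 4 group means over all 11 arrays (limma 3.58.1, lmFit and eBayes, run in R 4.3.3, with 7 residual and 12.9 prior degrees of freedom). Tests were two-sided, with Benjamini-Hochberg adjustment over all 22626 probe sets. The code was tested on simulated data. Of the probe sets, 20380 carry 1 symbol, 691 several and 1555 none, and symbols can be old.

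Values on every array were given for the 4 members with the smallest p in each comparison, the member with the highest mean in each class, and the subunits Psmb5 to Psmb10 that form or replace cutting sites; other members were singled out after their values were seen. The members, gene lists and marker lists were chosen with earlier results of these data known. Alternatives were quantile normalization, log2(intensity + 16), a filter on dim probe sets, 1 probe set per gene, array weights, a trended and robust prior, a replicate block, other groups of arrays in the fit, a threshold of 0.10, leaving out each array and, chosen after seeing the data, centring on bright probe sets and the gene groups under each scaling. No reference sequence was used here.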

Additional observations from a re-analysis of the deposited data

Results flagged for a closer look

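The probe sets here were flagged because the day lengths did not overlap in either nucleus and differed in opposite directions. Their interactions come from the values that flagged them, and the share of all probe sets that meet this rule was not counted. Of all probe sets, 2.64% were higher without overlap in the preoptic area and 13.5% lower in the bed nucleus. Psmc5, an ATPase, read higher in short days on all preoptic arrays and lower on all bed nucleus arrays, without overlap in either nucleus. The difference of these effects, bed nucleus minus preoptic area, was -0.59 on the log2 scale and did not pass the interaction test (limma, adjusted p = 0.478). Psmd5, a chaperone of the base, was split in the same way, at -0.69 (adjusted p = 0.481). The dim Psma7 probe set 1423567_a_at, with 17, 19 and 19 against 20, 20 and 20 in the preoptic area and 19, 17 and 17 against 13 and 16 in the bed nucleus, was at -0.42 (adjusted p = 0.583).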

How the results depend on the processing

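The count of called members was 0 in each of the 4 comparisons that involve day length under every alternative run. Between the nuclei it was 3 with log2(intensity + 16) (275 of all probe sets), 1 at a threshold of 0.10 (402) and 0 under the other alternatives. In the bed nucleus the median day length difference of the members, -0.078, was -0.189 with dim probe sets left out, -0.215 with 1 probe set per gene and 0.023 with centring on bright probe sets, and it ranged from -0.132 to -0.077 when each array was left out in turn. The median difference between the nuclei ranged from -0.085, without bed nucleus short-day array 4, to -0.036. The 26 members without overlap in the bed nucleus became 15 with quantile normalization (2777 of all probe sets) and 16 with centring on bright probe sets (1843). Of 376 values of single probe sets, 374 kept their direction and side of the threshold and 2 came to pass it. These probe sets were picked for the smallest p in their comparison, so their direction was likely to hold. None had passed in the main fit, so no call could be lost, and the count is no independent check.

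With sample number as a replicate block, 0 members were called in each comparison, and 225 of all probe sets between the nuclei. Same-numbered samples of both nuclei correlated at -0.028 to 0.073, so the data give no sign that the numbers pair the samples, and the labels do not say.

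Rounding limits dim probe sets, and the loss of signal on Peromyscus RNA is unknown for each probe set. Every day length difference in the bed nucleus rests on 2 short-day arrays.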
